A study of Mus musculus with 12 samples.

Results

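The mitochondrial ribosomal protein genes are the nuclear genes for the proteins of the ribosome inside mitochondria, and they were taken here as every gene whose symbol in the array's probe annotation begins with Mrpl or Mrps followed by a number. The rule found 78 genes with 129 probes, out of 19352 named genes and 41174 probes on the array. RNA levels were measured in cartilage from the femoral growth plate of Swiss White mice aged 14 days, with 4 samples each of the proliferative, prehypertrophic and hypertrophic zone. The labels name no treatment and no altered gene in any sample, so the groups differ by zone alone as far as the labels say. Zones were dissected from frozen sections, their RNA was amplified, and each of 6 arrays carried samples of 2 zones in different dyes. No label tells whether replicates came from different mice, so the p-values measure the spread between these samples, which may be technical.

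The mitochondrial ribosome translates the few proteins that mitochondrial DNA encodes, all of them subunits of the respiratory chain and ATP synthase. All its proteins are made in the cytosol and imported, and many have no relative in the bacterial ribosome from which it descends. In the growth plate, chondrocytes divide in the proliferative zone, stop dividing in the prehypertrophic zone and enlarge in the hypertrophic zone, next to vessels and marrow. Of the 78 genes, 51 encode proteins of the large subunit and 26 of the small subunit. The remaining one, Mrps36, carries a ribosomal name but its product is a component of the oxoglutarate dehydrogenase complex. Names mislead elsewhere too: the products of Mrps30 and Mrps18a sit in the large subunit. By class, 44 genes have a counterpart in bacterial ribosomes and 31 are specific to mitochondria, while Mrpl55 and Mrps28 were not classed.

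The promoters are shown first, since later paragraphs describe how their genes moved. Promoter windows of 300 bases, from 250 before to 50 after the annotated start, were found in RefSeq (GRCm38.p6) for 69 of the 78 genes, giving 75 windows. They were searched on both strands for GCGCA and GCGC with any 1 base between them (the motif of NRF1), CCGGAAG (that of ETS factors such as GABPA) and AAGATGG (the first part of that of YY1), 3 motifs of factors known to bind promoters of mitochondrial genes. The ETS motif was in 34.7% of the members' windows, against 8.86% of all 32851 windows. The NRF1 motif was in 17.3%, against 4.6% of all windows, and the YY1 motif in 17.3%, against 6.34%. At least 1 of the motifs was in 57.3% of the members' windows and in 18.0% of all windows. The members' windows are also rich in CG pairs, with a median of 21 a window, against 7 in all windows. Among windows with between 15.5 and 26.5 CG pairs, 59.5% of 37 members' windows held a motif, against 34.1% of 5125 windows of protein-coding genes. In this range the ETS motif was in 37.8% of the members' windows, against 20.8%, and the YY1 motif in 18.9%, against 7.67%. The NRF1 motif was in 5 of the 37, against 537 of the 5125, so its contrast was much smaller here than with all windows. These contrasts were not tested. A match describes the letters and is not a binding site. These 3 motifs were kept out of 9 forms after the shares of all 9 on these windows had been seen, so the contrast with all windows is no independent evidence. Of the 6 forms not kept, the NRF1 motif with T in the middle was in 4.0% of the members' windows, against 0.971% of all windows. The longer YY1 form, AAGATGG followed by CGG, was in 6.67%, against 0.852%, and was shortened after these shares were seen. The SP box GGGCGG was in 52.0%, against 35.7%, the E-box CACGTG in 9.33%, against 7.15%, and CCAAT in 40%, against 37.4%. TATAAA was in 6.67% of the members' windows, against 13.6% of all windows.

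The windows of 6 genes on which the results turn are given on the gene's own strand, 5 of them chosen because they hold a match and 1, that of Mrpl50, because it holds none, with each match of the 3 motifs, on either strand, in capitals. Mrps18c (chr5:100798509-100798808, plus strand) was the member with the largest rise and Mrps16 (chr14:20393441-20393740, minus strand) the one with the largest fall toward the hypertrophic zone. The windows shown carry the ETS motif, read as CTTCCGG on the strand shown, but Mrps16 has another window, at chr14:20393585-20393884, with no match. Mrpl17 (chr7:105811038-105811337, minus strand) was lower at each step and carries an ETS and an NRF1 match. Mrpl37 (chr4:107066817-107067116, minus strand) carries a YY1 match just after its start, and Mrpl12 (chr11:120484387-120484686, plus strand) an NRF1 match, and both were lowest in the prehypertrophic zone. Mrpl50 (chr4:49521034-49521333, minus strand), with the largest fall at the first step, holds no match, and neither do the windows of Mrps25, Mrps15, Mrps6 and Mrps30, which are described further on.
Mrps18c: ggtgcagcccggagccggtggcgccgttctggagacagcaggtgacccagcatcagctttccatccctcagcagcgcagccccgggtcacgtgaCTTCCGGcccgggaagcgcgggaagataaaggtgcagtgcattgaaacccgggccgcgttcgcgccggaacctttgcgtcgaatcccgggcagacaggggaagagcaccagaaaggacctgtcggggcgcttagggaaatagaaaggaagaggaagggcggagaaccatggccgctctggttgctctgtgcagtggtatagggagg
Mrps16: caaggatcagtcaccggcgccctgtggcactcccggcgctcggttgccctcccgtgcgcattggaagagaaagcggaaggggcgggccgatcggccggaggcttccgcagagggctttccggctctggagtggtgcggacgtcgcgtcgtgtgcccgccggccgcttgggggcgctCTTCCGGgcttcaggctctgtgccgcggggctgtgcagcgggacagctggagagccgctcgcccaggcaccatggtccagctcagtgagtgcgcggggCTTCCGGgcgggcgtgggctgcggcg
Mrpl17: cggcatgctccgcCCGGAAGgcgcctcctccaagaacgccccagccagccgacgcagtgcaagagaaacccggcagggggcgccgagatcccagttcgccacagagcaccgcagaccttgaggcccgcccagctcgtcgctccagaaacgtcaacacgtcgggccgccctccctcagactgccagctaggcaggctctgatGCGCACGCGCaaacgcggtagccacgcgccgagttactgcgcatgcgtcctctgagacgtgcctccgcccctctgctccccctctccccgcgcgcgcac
Mrpl37: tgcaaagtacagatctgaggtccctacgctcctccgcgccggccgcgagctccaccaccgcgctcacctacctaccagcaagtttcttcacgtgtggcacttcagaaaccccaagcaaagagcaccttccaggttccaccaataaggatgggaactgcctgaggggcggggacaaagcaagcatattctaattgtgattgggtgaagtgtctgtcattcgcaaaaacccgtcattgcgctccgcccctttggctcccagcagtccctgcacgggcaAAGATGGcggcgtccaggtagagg
Mrpl12: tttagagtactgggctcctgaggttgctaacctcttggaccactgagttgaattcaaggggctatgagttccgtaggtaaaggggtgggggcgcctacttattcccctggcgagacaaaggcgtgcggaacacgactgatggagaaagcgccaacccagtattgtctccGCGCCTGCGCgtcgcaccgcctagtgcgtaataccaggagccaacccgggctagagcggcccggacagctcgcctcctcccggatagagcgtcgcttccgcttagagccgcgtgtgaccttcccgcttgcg
Mrpl50: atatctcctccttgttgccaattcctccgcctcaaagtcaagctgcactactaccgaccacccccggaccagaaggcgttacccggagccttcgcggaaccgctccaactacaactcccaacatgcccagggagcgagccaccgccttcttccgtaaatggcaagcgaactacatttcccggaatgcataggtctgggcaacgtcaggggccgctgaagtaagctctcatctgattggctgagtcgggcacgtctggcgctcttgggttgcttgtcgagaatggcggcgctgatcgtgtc

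The motifs were also counted apart for the 25 members that were lowest in the prehypertrophic zone, of which 20 have a window. At least 1 motif was in 70.0% of these 20 windows, against 52.7% of the 55 other windows. The ETS motif was in 25.0%, against 38.2%, and the NRF1 motif in 30.0%, against 12.7%. These are shares of few windows and were not tested.

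All 78 genes were well above background in every zone and entered the fit. In each sample, between 92.6% and 96.2% of the spots that are no controls passed that limit. Under the scanner files' sample names, the correlation of levels was 0.964 to 0.979 within zones and 0.897 to 0.964 between them. A further deposited table of log2 values carries the sample names in another order, with 1 of 12 columns closest to the scanner file of its name, and no value here comes from it. A level below is a log2 value relative to the sample's 75th percentile, so that levels of different genes are not compared, and a change is a difference of log2 values between zones. The members were measured more tightly than most features, with a median standard error (SE) of 0.028 against 0.051 over all features, which lets smaller changes pass the test.

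In the prehypertrophic zone the mitochondrial ribosomal protein genes as a set lay below the zones on either side. Against the mean of the hypertrophic and proliferative zones, 47 of the 78 were lower and 10 were higher in the prehypertrophic zone (limma, Benjamini-Hochberg adjusted p under 0.05 over 27173 features). Over all features, 24.9% were lower and 26% were higher in that comparison. The members' median change was -0.14, against 0.02 for all features. In bulk tissue, fewer cells of a type and less RNA per cell cannot be told apart.

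**Figure D1:**
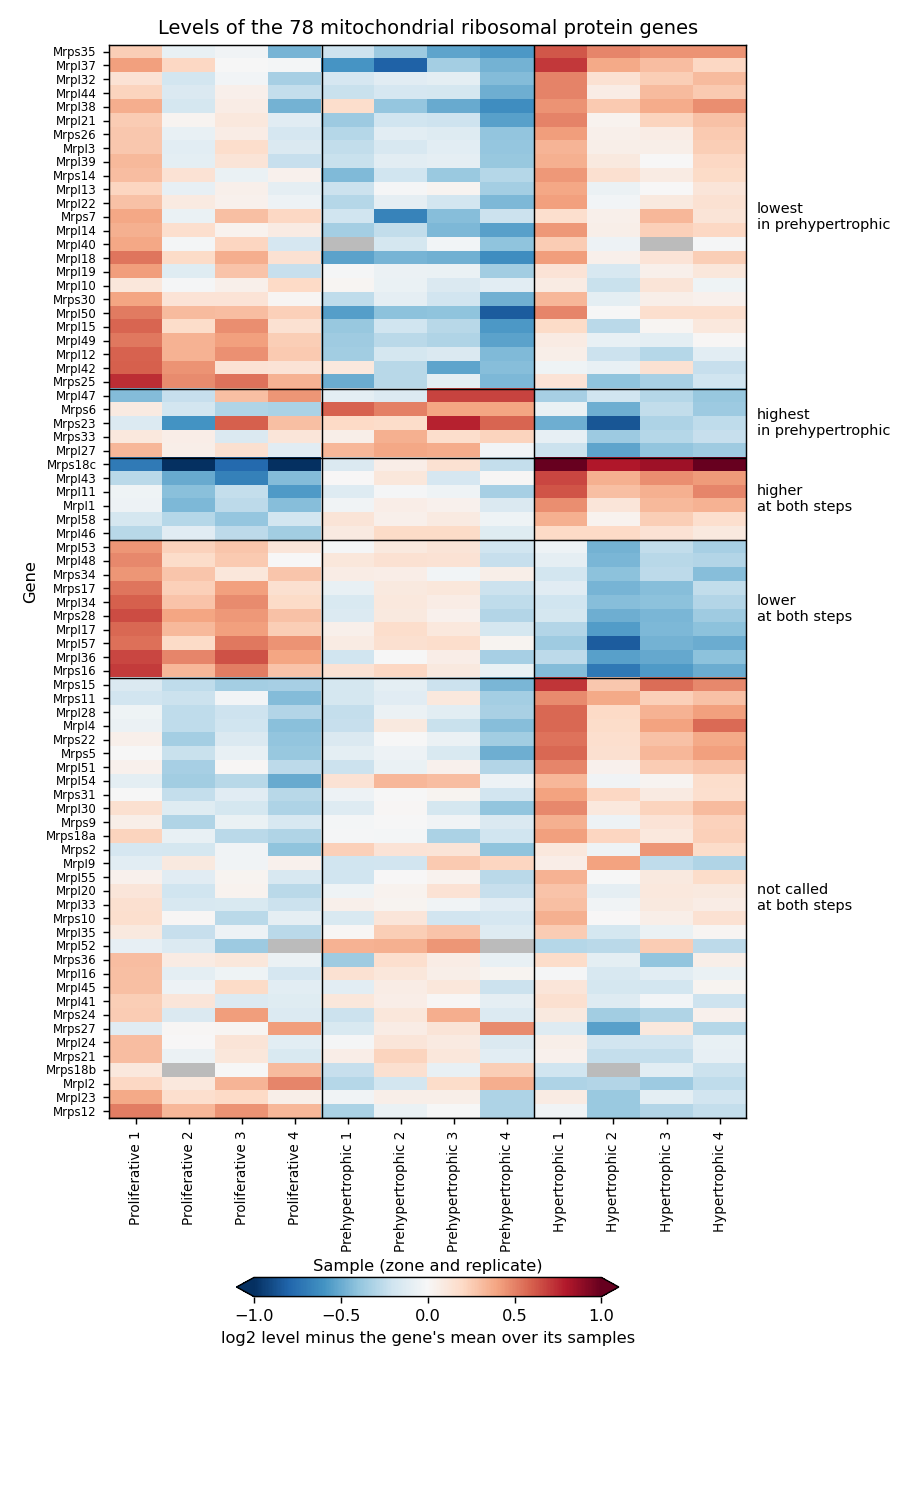
Each row is 1 of the 78 genes and each column 1 sample, with zones in the order of differentiation. The colour is the log2 level minus the gene's mean, grey marks a value left out for an outlier flag, and rows are grouped by the direction of both steps between zones. The 25 genes at the top are lowest in the prehypertrophic zone, and 5 genes below them are highest there.

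Counted by both steps along the axis, 25 of the 78 genes (32.1%) fell in the prehypertrophic against the proliferative zone and rose in the hypertrophic against the prehypertrophic zone. The same was seen for 10.7% of all features. The opposite course, highest in the prehypertrophic zone, was seen for 5 genes (6.41%) and for 11% of all features. Genes lower at both steps numbered 10 (12.8%, against 6.79% of all features), and genes higher at both steps numbered 6 (7.69%, against 7.71%). Both steps share the prehypertrophic samples, for the members and for all features alike. The mean level over the members ran from 1.09 to 1.44 in proliferative, from 0.94 to 1.21 in prehypertrophic and from 1.18 to 1.43 in hypertrophic samples. These ranges overlap, although the levels of some single genes do not.

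Between the prehypertrophic and the proliferative zone, 39 genes were lower and 14 higher in the prehypertrophic zone. Of all features, 22.5% were lower and 23.4% higher. The members' median change was -0.12, against 0.02 for all features. Large-subunit genes had 29 lower and 10 higher of 51, and small-subunit genes 10 lower and 4 higher of 26, with medians of -0.20 and -0.07. Whether the subunits differ was not tested. Levels of the 2 zones did not overlap for 23 lower and 5 higher members of the 75 with all values, against 15.3% and 14.3% of all features. Without the array that pairs prehypertrophic replicate 3 with proliferative replicate 3, 9 members were called higher and 32 lower. In either direction, 32.7% of all features were then called, against 45.9% with all arrays.

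Markers of dividing cells moved with this comparison. Of 9 cell cycle markers, 7 were lower in the prehypertrophic against the proliferative zone and none was higher. Their mean level lay between -0.45 and -0.30 in prehypertrophic samples and between 1.73 and 2.04 in proliferative samples. In the hypertrophic against the prehypertrophic zone, 8 of the 9 were higher and 1, Bub1, was lower (-0.32, SE 0.026, adjusted p 0.000762), and their mean level in hypertrophic samples lay between 1.42 and 1.71. Their part in the course of the ribosomal protein genes was not tested.

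Mrpl50, a protein of the large subunit with no bacterial counterpart, showed the largest fall in this comparison. Its level was 0.57, 0.71, 0.72 and 0.29 in prehypertrophic samples, against 1.64, 1.44, 1.43 and 1.36 in proliferative samples. The groups did not overlap, and the change was -0.90 (SE 0.045, adjusted p 0.00025). Its second probe also fell (-0.68, adjusted p 0.00034), but the 2 probes were called in opposite directions between the hypertrophic and prehypertrophic zones.

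Mrpl18, a counterpart of a bacterial large-subunit protein, was lowest in the prehypertrophic zone. Its level was 2.78, 2.43, 2.61 and 2.39 in proliferative, 1.70, 1.78, 1.76 and 1.62 in prehypertrophic, and 2.66, 2.29, 2.38 and 2.49 in hypertrophic samples. Every prehypertrophic sample lay below every sample of both other zones, and those overlapped each other. The change was -0.84 in the prehypertrophic against the proliferative zone (SE 0.026, adjusted p 8.4e-05) and 0.80 in the hypertrophic against the prehypertrophic zone (adjusted p 7.58e-05). All 3 of its probes passed in both steps in these directions. The dimmest of them was also lower in the hypertrophic than in the proliferative zone (-0.15, adjusted p 0.0282), where no other probe of Mrpl18 passed.

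The other large falls in the prehypertrophic zone were in both subunits. Mrps25, a small-subunit protein specific to mitochondria, had levels of -1.32, -1.11, -0.93 and -1.28 in prehypertrophic samples, against -0.10, -0.36, -0.29 and -0.49 in proliferative samples. The groups did not overlap, and the change was -0.80 (SE 0.044, adjusted p 0.00034). The second probe of Mrps25 did not pass (-0.69, SE 0.44, adjusted p 0.358). The gene's later rise of 0.19 in the hypertrophic zone lost its call without 4 of the 6 arrays, 1 at a time.

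Mrpl15, a counterpart of a bacterial large-subunit protein, had levels of -1.53, -1.35, -1.42 and -1.72 in prehypertrophic samples, against -0.57, -0.97, -0.68 and -0.998 in proliferative samples. The groups lay apart, and the change was -0.78 (SE 0.028, adjusted p 0.000116). Mrpl49, a large-subunit protein specific to mitochondria, had levels of 0.82, 0.90, 0.87 and 0.63 in prehypertrophic samples, against 1.70, 1.52, 1.58 and 1.42 in proliferative samples, and changed by -0.76 (SE 0.032, adjusted p 0.000157). Here too no sample overlapped. Of its other probes one fell as well (-0.62), while the other did not pass (0.14, adjusted p 0.127).

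Between the hypertrophic and the prehypertrophic zone, the test called 47 genes up and 18 down toward the hypertrophic zone. Of all features, 28% were higher and 29.9% lower. The median change was 0.22 for the members and -0.04 for all features. Large-subunit genes had 33 higher and 10 lower of 51, and small-subunit genes 14 higher and 8 lower of 26. Genes with a bacterial counterpart had 27 higher and 10 lower of 44, and mitochondria-specific ones 19 higher and 7 lower of 31. Levels did not overlap for 30 higher and 10 lower members of 75, against 17.6% and 25.9% of all features.

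Mrpl37, a large-subunit protein specific to mitochondria, had levels of -1.03, -1.36, -1.43 and -1.53 in hypertrophic samples, against -2.32, -2.55, -2.08 and -2.21 in prehypertrophic samples. The groups did not overlap, and the change was 0.96 (SE 0.083, adjusted p 0.00103), measured by a single probe. Mrps35, a small-subunit protein specific to mitochondria, had levels of -0.67, -0.81, -0.85 and -0.84 in hypertrophic samples, against -1.503, -1.66, -1.82 and -1.87 in prehypertrophic samples. Its groups lay apart as well, and the change was 0.86 (SE 0.043, adjusted p 0.000202).

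Mrps15, a counterpart of a bacterial small-subunit protein, moved at this step and not at the one before. Its level was 1.05, 0.61, 0.89 and 0.81 in hypertrophic samples, against 0.16, 0.24, 0.12 and -0.12 in prehypertrophic samples. The change was 0.78 (SE 0.036, adjusted p 0.00017), and the groups did not overlap. Its second probe did not follow (-0.01, adjusted p 0.817).

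Between the ends of the axis the set was divided. The comparison of the hypertrophic with the proliferative zone had 37 genes higher and 24 lower, against 28.2% and 30.7% of all features. The median change was 0.07, against -0.03 for all features. At 2-fold or more, 1 member was higher (8.99% of all features) and 1 was lower (5.81%). Levels did not overlap for 16 higher and 16 lower members of 75, against 17.7% and 19.3% of all features. When the probes of a gene were averaged, the median turned to -0.04, with 31 genes higher and 28 lower.

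**Figure D2:**
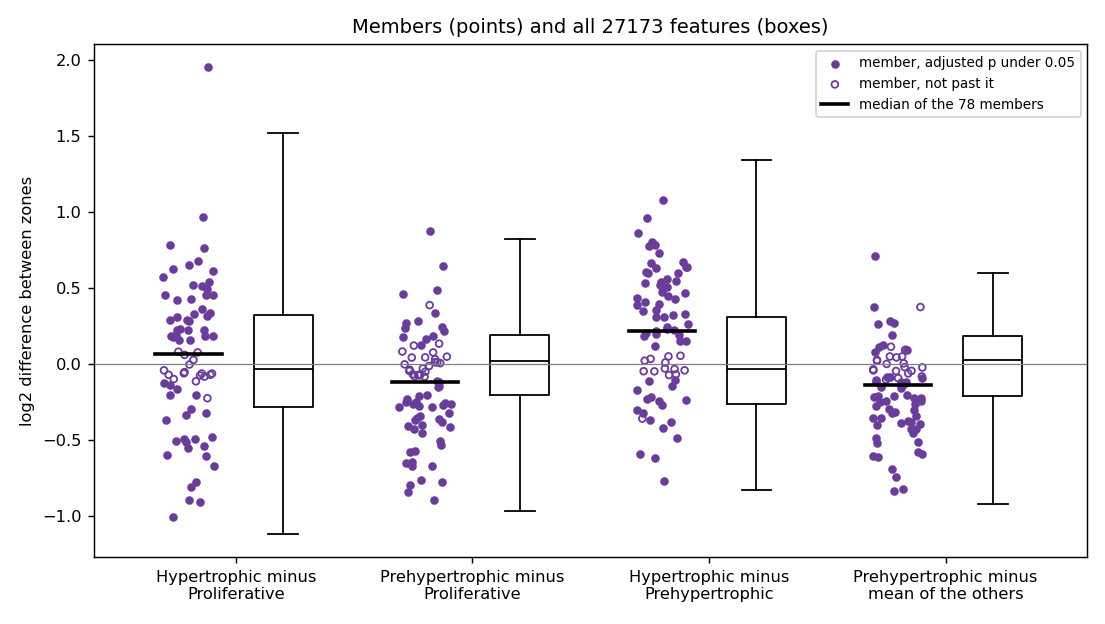
Points are the 78 members and boxes all 27173 features, as log2 differences between zones, with boxes spanning the quartiles and whiskers the 5th to 95th percentile. Filled points passed an adjusted p of 0.05. The members' median is below 0 in both prehypertrophic comparisons, at -0.12 and -0.14, and is 0.22 in the hypertrophic against the prehypertrophic zone.

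Mrps18c, the counterpart of a bacterial small-subunit protein, showed the largest change of all members. Its level was 2.33, 1.97, 2.26 and 1.92 in proliferative, 2.90, 3.11, 3.19 and 2.80 in prehypertrophic, and 4.20, 3.84, 3.89 and 4.07 in hypertrophic samples. No 2 zones overlapped. The change was 1.95 in the hypertrophic against the proliferative zone, or 3.87-fold (SE 0.024, adjusted p 1.82e-05). It was 0.87 in the prehypertrophic against the proliferative zone (adjusted p 6.84e-05) and 1.08 in the hypertrophic against the prehypertrophic zone (adjusted p 4.46e-05). Its second probe gave 1.92 between the ends of the axis.

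Mrps18a and Mrps18b, which resemble Mrps18c in sequence, are classed here as specific to mitochondria by the place of their products in the ribosome. Mrps18a, whose product sits in the large subunit, had levels of 1.54, 1.34, 1.24 and 1.37 in hypertrophic samples, against 1.35, 1.06, 0.86 and 0.83 in proliferative samples. The groups overlapped, although the change of 0.31 passed (SE 0.026, adjusted p 0.000788). Mrps18b, in the small subunit, had levels of -2.58, -2.48 and -2.59 in hypertrophic samples, against -2.27, -2.38 and -2.06 in proliferative samples, with replicate 2 of each left out for an outlier flag. Its change of -0.23 did not pass (SE 0.12, adjusted p 0.212), and whether the 3 genes differ from each other was not tested.

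Mrps16, a counterpart of a bacterial small-subunit protein whose loss in human cells impairs mitochondrial translation, showed the largest fall. Its level was 2.88, 2.51, 2.70 and 2.47 in proliferative, 2.33, 2.39, 2.28 and 2.11 in prehypertrophic, and 1.75, 1.47, 1.62 and 1.68 in hypertrophic samples. No 2 zones overlapped. The change was -1.01 in the hypertrophic against the proliferative zone (SE 0.027, adjusted p 3.19e-05), from 1 probe.

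Mrpl43, a large-subunit protein specific to mitochondria, had levels of 2.48, 2.17, 2.27 and 2.23 in hypertrophic samples, against 1.54, 1.31, 1.13 and 1.38 in proliferative samples. The change was 0.97 (SE 0.03, adjusted p 4.34e-05), the groups lay apart, and its second probe gave 0.76. The gene overlaps Twnk, which encodes the mitochondrial DNA helicase and did not pass between the same zones (-0.53, SE 0.23, adjusted p 0.115).

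The other leading members, all of the large subunit, fell. Mrpl36, the counterpart of a small bacterial protein, had levels of 1.68, 1.40, 1.43 and 1.53 in hypertrophic samples, against 2.62, 2.43, 2.58 and 2.34 in proliferative samples, and changed by -0.91 (SE 0.028, adjusted p 4.14e-05). Mrpl17, the counterpart of a bacterial protein, had levels of 1.01, 0.75, 0.85 and 0.89 in hypertrophic samples, against 1.88, 1.63, 1.71 and 1.55 in proliferative samples, and changed by -0.81 (SE 0.031, adjusted p 6.84e-05). In both genes every hypertrophic sample lay below every proliferative one. Mrpl57, specific to mitochondria, had levels of 0.95, 0.47, 0.83 and 0.81 in hypertrophic samples, against 1.86, 1.499, 1.83 and 1.75 in proliferative samples, and changed by -0.89 (SE 0.026, adjusted p 3.7e-05). Its second probe went the other way (0.40, adjusted p 0.00442), so the direction for Mrpl57 depends on the probe.

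**Figure D3:**
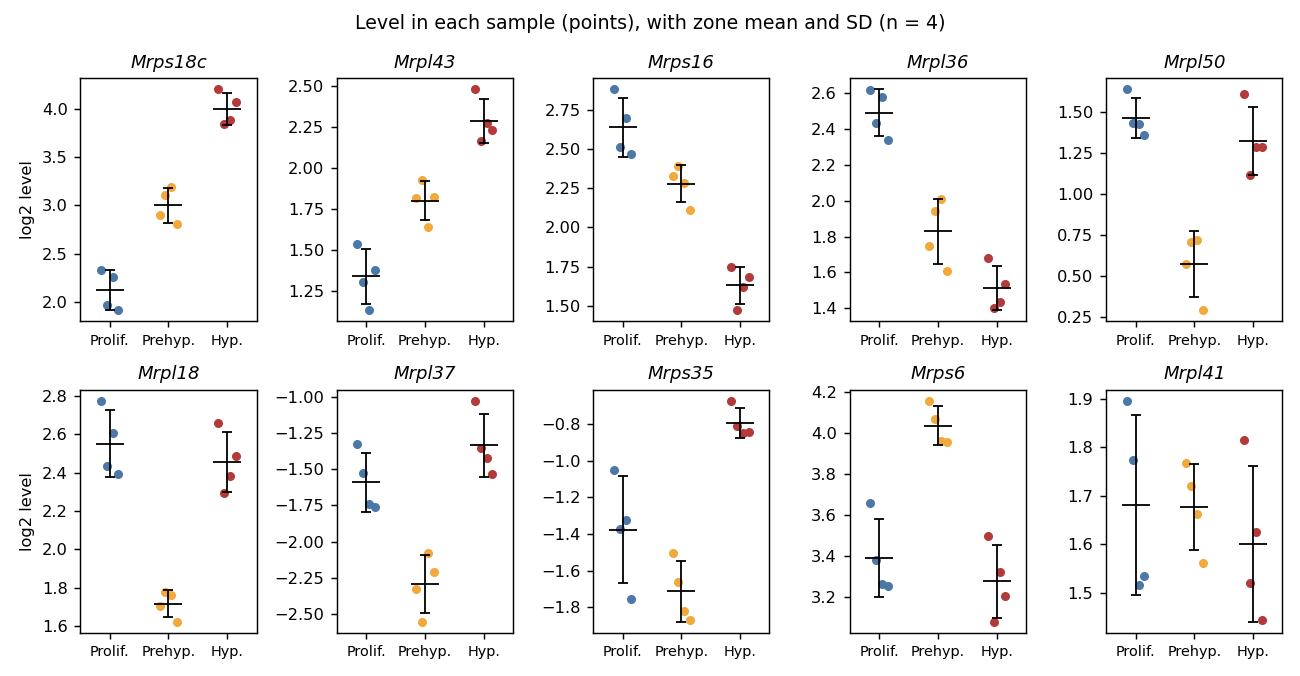
Points are the log2 levels of 10 members in each of the 12 samples, with the mean and SD of each zone (n = 4), and each panel has its own axis that does not start at 0. Mrps18c and Mrpl43 are higher in each later zone, Mrps16 and Mrpl36 lower, Mrpl50, Mrpl18, Mrpl37 and Mrps35 lowest in the prehypertrophic zone, Mrps6 highest there, and the zones of Mrpl41 overlap.

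The 5 genes highest in the prehypertrophic zone were Mrpl27, Mrpl47, Mrps23, Mrps33 and Mrps6. Mrps6, a counterpart of a bacterial small-subunit protein that was singled out after its values were seen, stood furthest out. Its level was 3.66, 3.38, 3.26 and 3.25 in proliferative, 4.16, 4.07, 3.96 and 3.96 in prehypertrophic, and 3.499, 3.08, 3.32 and 3.20 in hypertrophic samples. Every prehypertrophic sample was above all others. The change was 0.64 in the prehypertrophic against the proliferative zone (SE 0.034, adjusted p 0.00029) and -0.77 in the hypertrophic against the prehypertrophic zone (adjusted p 0.000149), and the second probe gave 0.62 and -0.92. The gene overlaps Slc5a3, a myo-inositol transporter, over 29138 bases of chromosome 16. Slc5a3 changed by 0.91 and -4.23 in the same comparisons (SE 0.032), and whether transcripts of one gene reach the other's probes was not tested. Mrpl47 and Mrps23 have probes that were called in opposite directions.

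Some members were named for their role, whatever their values. Mrpl12, whose product in human cells also binds the mitochondrial RNA polymerase, had levels of 2.23, 2.40, 2.43 and 2.14 in prehypertrophic samples, against 3.16, 2.92, 3.03 and 2.84 in proliferative samples. It changed by -0.67 (SE 0.03, adjusted p 0.000189), with no overlap, and stayed below the proliferative level in the hypertrophic zone, with a change of -0.48 (adjusted p 0.000307). Mrps12, the counterpart of a bacterial protein of the decoding site, had levels of 1.56, 1.38, 1.496 and 1.38 in proliferative, 0.73, 0.98, 1.05 and 0.74 in prehypertrophic and 1.02, 0.68, 0.75 and 0.81 in hypertrophic samples. It fell at the first step (-0.57, SE 0.024, adjusted p 0.000158), and the second step did not pass (0.03, adjusted p 0.313). Mrps30, in the large subunit, had levels of 1.21, 1.37, 1.27 and 0.98 in prehypertrophic samples, against 1.86, 1.60, 1.60 and 1.48 in proliferative samples, and changed by -0.43 (SE 0.027, adjusted p 0.000475) without overlap.

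The 4 members with the smallest changes were Mrps36, Mrps24, Mrps27 and Mrpl41. Mrps36, the component of the dehydrogenase complex, had levels of 1.82, 1.54, 1.24 and 1.70 in hypertrophic samples, against 1.94, 1.72, 1.75 and 1.58 in proliferative samples. Its change of -0.05 did not pass (SE 0.026, adjusted p 0.144). The second probe of Mrps36 passed there (-0.10, adjusted p 0.0387) and in the prehypertrophic against the proliferative zone (-0.13, adjusted p 0.029). Mrpl41, linked in human cells to control of cell death, had levels of 1.81, 1.52, 1.63 and 1.44 in hypertrophic samples, against 1.77, 1.72, 1.66 and 1.56 in prehypertrophic samples, and its change of -0.11 passed (SE 0.024, adjusted p 0.0171) although the groups overlapped. That call was lost without each of 4 arrays in turn (adjusted p 0.053 to 0.079), without the dye term (0.155), with the mean of its probes (0.147), with median centring (0.064) and with the replicate block (0.0731), and its second probe did not pass in any pairwise comparison. Mrps24 and Mrps27 changed by -0.08 (SE 0.029) and -0.10 (SE 0.11) in the hypertrophic against the proliferative zone, and neither passed any pairwise comparison. A change too small for the test is not shown to be absent, least of all for Mrps27, with its wide error.

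Of the 78 genes, 35 have more than 1 probe, and probes of a gene often differed. In the hypertrophic against the proliferative zone, probes of 8 genes were called in opposite directions, and in 10 genes all probes were called in the same one. In the prehypertrophic against the mean of the outer zones, 2 genes (Mrpl47 and Mrps23) had opposite calls and in 11 all probes were called in the same direction. All probes lay below 0 in 20 of the 35 genes and above 0 in 5 in that comparison. Counted over all 129 probes, 67 were lower and 15 higher in the prehypertrophic zone than in the outer zones, against 23.4% and 22.9% of all probes. Between the ends of the axis, 48 probes were higher and 44 lower, against 27.6% and 27.8% of all probes. Mrpl52 was saturated in some samples, and its probes ranged from -1.505 to 0.39 in the prehypertrophic against the proliferative zone.

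**Figure D4:**
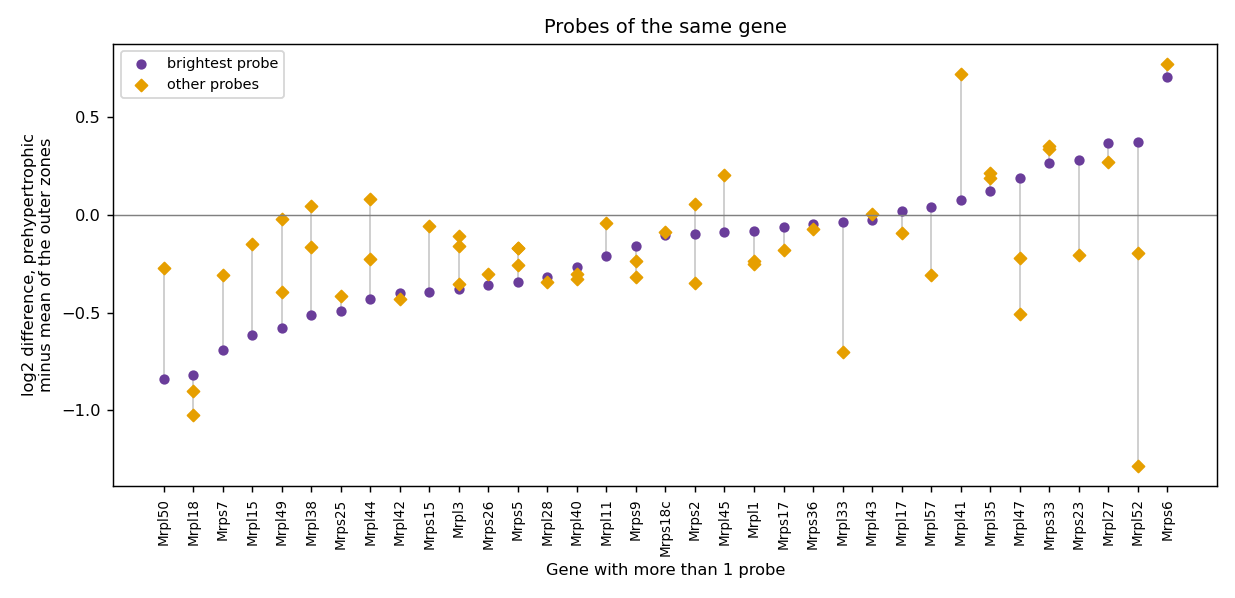
For the 35 genes with several probes, each point is the log2 difference of 1 probe between the prehypertrophic zone and the mean of the outer zones, with the brightest probe as a circle and the others as diamonds. Mrpl18, Mrps6 and Mrps33 have probes close together, while those of Mrpl52, Mrpl41 and Mrpl50 lie far apart.

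Proteins of the mitochondrial ribosome with names outside the rule were measured for 4 further genes. Dap3, a small-subunit protein that binds GTP, rose by 0.84 in the hypertrophic against the proliferative zone (SE 0.025, adjusted p 3.91e-05), and Chchd1, also of the small subunit, fell by 1.16 (SE 0.028, adjusted p 2.66e-05). Dap3 was already higher in the prehypertrophic than in the proliferative zone (0.58, adjusted p 0.000174). Chchd1 was lower in the hypertrophic than in the prehypertrophic zone (-0.92, adjusted p 6.78e-05). Ptcd3 was lower in the prehypertrophic zone than in the proliferative zone (-0.43, SE 0.026, adjusted p 0.000409) and higher again in the hypertrophic zone (0.62, adjusted p 0.000126). Gadd45gip1 did not pass between the ends of the axis (0.02, SE 0.023, adjusted p 0.611). The list these genes come from also holds members such as Mrpl57. Against the mean of the outer zones, 3 of its 6 tested genes were higher and 1 lower in the prehypertrophic zone (median 0.06). For all features these shares were 26% and 24.9%.

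Genes that work with the mitochondrial ribosome were more often lower than higher in the prehypertrophic against the proliferative zone. Of 14 translation factors 9 were lower and 2 higher, of 19 mitochondrial aminoacyl-tRNA synthetases 9 lower and 3 higher, and of 23 assembly factors 8 lower and 5 higher. Among import and chaperone genes, 11 of 15 were lower and none higher. The shares lower were 64.3%, 47.4%, 34.8% and 73.3% in this order of lists, against 22.5% of all features. The shares higher were 14.3%, 15.8%, 21.7% and 0%, against 23.4% of all features. The median changes were -0.45, -0.33, -0.03 and -0.30 in that order of lists. Tufm, the elongation factor that brings aminoacyl-tRNA to the ribosome, had levels of 0.85, 0.80, 0.77 and 0.61 in prehypertrophic samples, against 1.73, 1.52, 1.46 and 1.32 in proliferative samples, and changed by -0.74 (SE 0.025, adjusted p 9.96e-05). Mrrf, which recycles ribosomes after termination, changed by -1.04 (SE 0.026, adjusted p 6.06e-05), and Lrpprc, which stabilises mitochondrial messenger RNA, by -0.91 (SE 0.034, adjusted p 0.000123).

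In the hypertrophic against the proliferative zone these lists again had more genes lower than higher, and whether they differ from the ribosomal proteins was not tested. Translation factors had 8 lower and 4 higher, synthetases 10 lower and 4 higher, and import and chaperone genes 8 lower and 4 higher. Assembly factors were closer to even, with 10 lower and 8 higher of 23. The shares lower were 57.1%, 52.6%, 53.3% and 43.5% in this order, against 30.7% of all features. The shares higher were 28.6%, 21.1%, 26.7% and 34.8%, against 28.2% of all features. Hspd1 and Hspe1, the chaperonin pair of the mitochondrial matrix, changed by -1.41 (SE 0.046, adjusted p 4.68e-05) and -1.46 (SE 0.053, adjusted p 6.31e-05). Lars2, the synthetase for leucine, rose by 3.14 (SE 0.063, adjusted p 2.04e-05), and Wars2, that for tryptophan, fell by 1.91 (SE 0.03, adjusted p 1.82e-05).

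Of 80 nuclear genes for subunits of the respiratory chain and ATP synthase, 27 were lower and 27 higher in the prehypertrophic against the proliferative zone, with a median of 0.01, and 42 were higher and 16 lower in the hypertrophic against the prehypertrophic zone. Genes of the cytosolic ribosome had 37 of 76 lower and none higher in the prehypertrophic zone, with a median of -0.18, and 18 higher and 9 lower at the second step, with a median of 0.01. Against the mean of the outer zones, 36 respiratory chain genes were lower and 13 higher in the prehypertrophic zone (median -0.06). Cytosolic ribosomal protein genes had 35 lower and 2 higher in that comparison (median -0.10). Of all features, 24.9% were lower and 26% higher there. At the first step 22.5% of all features were lower and 23.4% higher, and at the second 29.9% and 28%. The median SE at the first step was 0.029 for respiratory chain genes and 0.048 for cytosolic ribosomal protein genes, against 0.050 for all features. The lists are set side by side here and their differences were not tested.

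**Figure D5:**
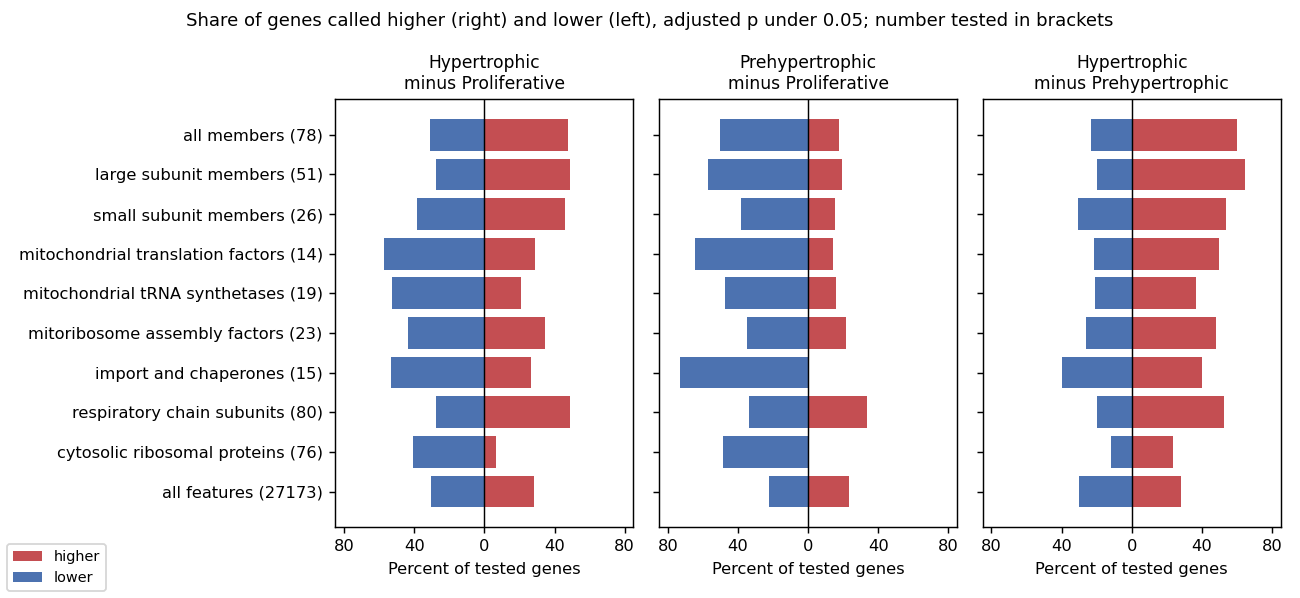
Bars give the percent of tested genes in each list that were called higher (right) and lower (left) in 3 comparisons, with the number tested in brackets. Of the members, 50% were lower in the prehypertrophic against the proliferative zone and 60.3% higher in the hypertrophic against the prehypertrophic zone, against 22.5% and 28% of all features in the bottom row.

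Among 9 regulators of mitochondrial genes, Gabpa, an ETS factor, rose by 2.45 in the hypertrophic against the proliferative zone (SE 0.03, adjusted p 1.82e-05), with levels of 2.84, 2.45, 2.49 and 2.62 in hypertrophic samples, against 0.48, 0.09, 0.23 and -0.0036 in proliferative samples. Its partner Gabpb1 rose by 1.29 (SE 0.038, adjusted p 3.74e-05), and Pprc1, a coactivator, fell by 1.67 (SE 0.03, adjusted p 1.84e-05). Yy1 was higher in the prehypertrophic than in the proliferative zone by 0.79 (SE 0.025, adjusted p 9.04e-05). Nrf1 did not pass in any pairwise comparison.

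Most markers of marrow and vessel cells were higher in the hypertrophic samples. All 8 leukocyte markers and all 5 erythroid markers were higher than in the proliferative zone, and so were 4 of 5 endothelial and 3 of 5 osteoclast markers. Of the osteoclast markers, 1 was lower. The mean level of the leukocyte markers lay between -1.71 and -0.60 in proliferative, between -1.34 and -0.45 in prehypertrophic and between 2.59 and 2.97 in hypertrophic samples. That of the erythroid markers lay between -0.84 and 1.17, between -0.55 and 1.17, and between 2.83 and 3.96 in the same order. For the endothelial markers it was -2.25 to -1.25, -1.80 to -1.12 and -0.19 to 0.16, and for the osteoclast markers -0.90 to -0.41, -1.17 to -0.22 and 1.06 to 1.34. No marker of these lists was below background throughout a zone. Their part in the rise of ribosomal protein genes in the hypertrophic zone was not tested. Of 6 chondrocyte markers, 4 (Sox9, Col9a1, Matn1 and Matn3) were lower in the hypertrophic against the proliferative zone, by as much as -2.71 for Sox9 (SE 0.042, adjusted p 1.82e-05). Acan was higher (0.32, SE 0.089, adjusted p 0.0376) and Col2a1 did not pass (-0.26, SE 0.19, adjusted p 0.303). Alpl and Mmp13, of a list of prehypertrophic and hypertrophic markers, changed by 5.18 (SE 0.12, adjusted p 2.63e-05) and 5.71 (SE 0.26, adjusted p 0.000116). In the prehypertrophic against the proliferative zone, 5 of the 6 tested markers of that list were higher, against 23.4% of all features. Alpl changed by 4.99 there (SE 0.12, adjusted p 5.91e-05). Mmp13 changed by 5.86 in the hypertrophic against the prehypertrophic zone (SE 0.26, adjusted p 0.000152).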

How the data were processed

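RNA of 12 samples, 4 a zone, was measured on 6 Agilent arrays with a sample of a different zone in each dye. Per the file headers, each deposited file gives a single channel's processed signal, an intensity from which background and spatial trends had been removed. The submitters' processing notes name Agilent Feature Extraction 8.1.1.1. Whether dyes were normalized in these files is not given in the sources used here. The deposited files hold other values as flags for saturated, outlying and well-above-background spots. A deposited table of log2 values was used to check sample names and for nothing else.

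The channels were joined by spot and the log2 ratios normalized by loess within arrays (limma 3.58.1, R 4.3.3). Spots flagged as outliers were left out (7249 ratios). Probes well above background in 4 of 12 samples were kept, and a gene was represented by its brightest probe, which left 27241 features, of which 27173 could be tested. Gene names came from the platform's annotation. Each feature was fitted with zone and dye terms and variances moderated by eBayes (residual df 3, prior df 1.22). Adjustment was by Benjamini-Hochberg over all features, with calls at 0.05. The fit was tested on simulated data. The number of arrays limits the precision.

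The members, lists, tests and rules were chosen with earlier results of these data known. Named with full values were the 6 members with the largest change per pairwise comparison, with the same sign on both arrays carrying the zones, the 4 with the smallest change, and 8 chosen by role. Of the other lists the 3 largest called changes were eligible. Alternatives were the normalization, dye term, probe choice, dim-probe filter, flagged spots, moderation, model and each array left out.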

Additional observations from a re-analysis of the deposited data

How the results depend on the processing

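Of 192 counts and medians over the members under all alternatives, 166 stayed within 1.5 times the count or 1 SD of the median over arrays (0.00967), 25 moved and 1 reversed. The median change in the hypertrophic against the proliferative zone reversed to -0.039 with the mean of a gene's probes. It was 0.041 with no loess and no centring, 0.077 in a separate-channel fit and 0.082 with the replicate block. The median in the prehypertrophic against the proliferative zone was -0.146 with median centring, -0.141 with no loess and no centring, -0.154 with the mean of probes and -0.101 with flagged spots kept. That in the hypertrophic against the prehypertrophic zone was 0.258, 0.232, 0.208 and 0.208 under the same alternatives in that order. In the prehypertrophic zone against the mean of the outer zones it was -0.170 with median centring, -0.154 with no loess and no centring, -0.190 with the mean of probes, -0.154 in the separate-channel fit and -0.181 with the replicate block. Members called higher in the prehypertrophic against the proliferative zone numbered 9 with the mean of probes. Against the outer zones they numbered 5 with the mean of probes and 6 without the dye term. Of all features, 39.6% were called in the first of these fits, against 45.9% in the main one. Against the outer zones 43.5% were called with the mean of probes and 39.4% without the dye term, against 50.9%. The causes were not tested. With each array left out in turn, members higher and lower ranged from 33 to 37 and 20 to 26 in the hypertrophic against the proliferative zone, with medians of 0.062 to 0.085. They ranged from 9 to 14 and 32 to 37 in the prehypertrophic against the proliferative zone (medians -0.125 to -0.107). In the hypertrophic against the prehypertrophic zone they ranged from 43 to 45 and 13 to 17 (0.211 to 0.224). Against the outer zones they ranged from 6 to 9 and 37 to 45 (-0.149 to -0.141), with 6 higher without each of 3 arrays. These arrays pair hypertrophic replicate 3 with prehypertrophic replicate 1, prehypertrophic replicate 2 with hypertrophic replicate 4, and prehypertrophic replicate 3 with proliferative replicate 3. Without them, in that order, 42.8%, 39% and 38.2% of all features were called in that comparison, against 50.9% with all arrays. Among 1464 values of named members, 1400 kept direction and call, 20 gained and 43 lost a call, and 1 reversed, Mrpl57 in the hypertrophic against the prehypertrophic zone (0.0097 with the mean of probes). Replicate numbers were not taken as pairs: deviations from the zone means correlated at -0.254 to 0.300 for 8 pairs with the same number on different arrays. On a shared array, 4 pairs with the same number correlated at 0.389 to 0.607 and 2 with different numbers at 0.223 to 0.296. The replicate block gave 36 higher and 25 lower members in the hypertrophic against the proliferative zone, 14 and 39 in the prehypertrophic against the proliferative zone, 45 and 16 in the hypertrophic against the prehypertrophic zone, and 7 and 42 against the outer zones.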

Other observations

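The mitochondrial ribosomal protein genes often stand head to head with another gene. Of the 69 with a promoter window, 24 (34.8%) had a protein-coding gene starting on the opposite strand within 1000 bases upstream, against 8.48% of 17492 protein-coding genes. One pair holds 2 members, Mrpl46 and Mrps11, whose starts lie 42 bases apart. They changed by 0.45 and 0.68 in the hypertrophic against the proliferative zone.

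The values of 4 further pairs follow, and whether a member and its partner differ was not tested. Mrps18c lies 159 bases from Helq, which encodes a DNA helicase, and rose by 1.95 in the hypertrophic against the proliferative zone, where Helq did not pass (-0.02, SE 0.027, adjusted p 0.609). Mrpl18 and Tcp1, a subunit of the cytosolic chaperonin, start 238 bases apart. Both fell in the prehypertrophic against the proliferative zone (-0.84 and -0.56, adjusted p 8.4e-05 and 0.000216). Tcp1 also fell in the hypertrophic against the proliferative zone (-0.44, adjusted p 0.000265). There the brightest probe of Mrpl18 did not pass (-0.04, adjusted p 0.223), but its dimmest probe was lower (-0.15, adjusted p 0.0282). Mrpl57 and Ska3, which encodes a kinetochore protein, start 76 bases apart and changed by -0.89 and -0.92 between these zones, but the second probe of Mrpl57 went the other way (0.40, adjusted p 0.00442). Mrps12 and Sars2, the mitochondrial synthetase for serine, start 147 bases apart, and Mrps12 fell by 0.54 (adjusted p 0.000107) where Sars2 did not pass (0.02, adjusted p 0.588). These pairs were chosen after their values were seen.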
